A study of Mus musculus with 20 samples.

Results

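Genes of the circadian clock were examined in brain hemispheres of mice described as adult, across injured and uninjured hemispheres with and without the peptide IDR1018. The set held 10 named genes: the activators Arntl (also called Bmal1), Clock and Npas2, the repressors Per2, Per3, Cry1 and Cry2, the nuclear receptors Nr1d1 and Nr1d2 (REV-ERB alpha and beta), and the output factor Dbp. For each gene the probe set annotated to that symbol alone was taken, the brightest where there were several. A probe set was listed for 9 of the 10, each gene with 1 probe set, out of 19937 genes with such a probe set on the array, and Npas2 was not analysed here. All 9 lay above the median of the control probe sets (6.84) on all 20 arrays.

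The mice were C57/Bl6 and are described as adults, a stage that was not tested against the values here. All had received the same insult, hypoxia-ischemia (HI, a shortage of oxygen and blood flow) sensitised with lipopolysaccharide (LPS, a bacterial endotoxin). Group 1 was the injured left hemisphere after LPS + HI, group 2 the uninjured right hemisphere after LPS + HI, and groups 3 and 4 were the left and right hemispheres of mice given LPS + HI with IDR1018, an immunomodulatory peptide. Each group had 5 arrays, and specimen numbers tied the left and right arrays to 10 animals, 5 without and 5 with the peptide. The right hemisphere therefore came from the same insulted animals, and no group was free of LPS and HI. Whole hemispheres were frozen on dry ice. The dose, the exact ages, the interval after the insult and the hour of the day at which brains were taken are not given in the sources used here, so no level below can be placed on a daily cycle.

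RNA was measured on an Affymetrix mouse gene array, and a level is a log2 value after robust multi-array averaging (RMA), on which 1 unit is a doubling. Array medians ran from 8.20 to 8.23, any pair of arrays correlated at 0.994 to 0.998, and the median SD among the 5 arrays of a group was 0.074 to 0.082. Xist, read as a check on specimen numbers, put the left and right arrays of all 10 animals in the same class. By that class 2 animals without peptide were female and 3 male, and 3 with peptide were female and 2 male. The part of sex in the comparisons was not tested. Arrays were numbered with all left hemispheres first and all right hemispheres after them, so the order of the arrays and the hemisphere cannot be told apart. In whole tissue, fewer cells of a type and less RNA per cell cannot be told apart either.

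The clock is a delayed negative feedback loop that runs in most cells of the body. ARNTL pairs with CLOCK or NPAS2 and binds E-boxes at the Per, Cry, Nr1d and Dbp genes, and PER and CRY proteins return to the nucleus and block that pair. NR1D1 and NR1D2 repress Arntl and other genes at ROR elements, where the ROR receptors activate, and DBP activates at D-boxes, where NFIL3 represses. In the brain the suprachiasmatic nucleus sets the phase, while neurons and glia elsewhere run their own oscillators.

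The promoters of the 5 members that passed the test in either comparison of hemispheres are shown first. They were chosen by that result, and for Arntl the start with a match is printed. Each runs from 250 bases before to 50 bases after a transcription start in RefSeq on build GRCm38.p6, read 5′ to 3′ on the gene's strand, and capitals mark a match to one of the motifs searched. Cry1 lies at chr10:85185005-85185304 (minus strand), Cry2 at chr2:92434020-92434319 (minus strand), Nr1d1 at chr11:98775328-98775627 (minus strand), Arntl at chr7:113207261-113207560 (plus strand, the second of 2 RefSeq starts) and Per3 at chr4:151044616-151044915 (minus strand).
Cry1: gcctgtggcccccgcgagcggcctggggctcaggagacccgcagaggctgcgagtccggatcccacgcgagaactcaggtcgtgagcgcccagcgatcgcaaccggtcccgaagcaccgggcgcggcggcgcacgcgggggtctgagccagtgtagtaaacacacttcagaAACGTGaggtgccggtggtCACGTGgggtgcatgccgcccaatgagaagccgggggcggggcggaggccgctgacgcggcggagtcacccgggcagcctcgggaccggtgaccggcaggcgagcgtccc
Cry2: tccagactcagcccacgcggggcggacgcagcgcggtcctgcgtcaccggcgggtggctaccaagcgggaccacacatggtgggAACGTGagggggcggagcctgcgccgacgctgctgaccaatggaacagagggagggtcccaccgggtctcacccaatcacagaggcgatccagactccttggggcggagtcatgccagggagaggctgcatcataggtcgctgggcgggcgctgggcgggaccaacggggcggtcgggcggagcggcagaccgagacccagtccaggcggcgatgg
Nr1d1: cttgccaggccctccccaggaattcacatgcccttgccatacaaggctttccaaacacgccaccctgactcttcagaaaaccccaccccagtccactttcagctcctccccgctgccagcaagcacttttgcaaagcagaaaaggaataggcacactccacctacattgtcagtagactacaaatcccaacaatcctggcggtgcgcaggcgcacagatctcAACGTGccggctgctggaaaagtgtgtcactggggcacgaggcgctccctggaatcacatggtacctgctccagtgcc
Arntl: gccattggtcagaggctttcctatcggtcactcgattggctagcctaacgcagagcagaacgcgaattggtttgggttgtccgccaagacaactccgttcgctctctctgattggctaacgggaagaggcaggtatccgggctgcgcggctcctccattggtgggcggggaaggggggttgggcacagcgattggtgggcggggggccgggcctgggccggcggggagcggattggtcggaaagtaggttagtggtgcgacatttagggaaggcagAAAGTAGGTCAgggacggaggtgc
Per3: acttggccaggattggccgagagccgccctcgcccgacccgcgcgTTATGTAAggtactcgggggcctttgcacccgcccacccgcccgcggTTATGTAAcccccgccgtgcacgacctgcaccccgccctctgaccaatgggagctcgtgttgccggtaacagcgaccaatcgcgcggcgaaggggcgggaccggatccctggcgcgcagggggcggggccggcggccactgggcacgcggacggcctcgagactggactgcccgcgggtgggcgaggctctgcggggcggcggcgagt

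The motifs were searched on both strands: the E-box CACGTG, the E-prime box CACGTT, the D-box as TTATGTAA or TTACGTAA, the cAMP response element TGACGTCA, the letters AGGTCA, and the full ROR element. The ROR element was searched as A or T, A, A or T, any base, T, A or G, then GGTCA. It overlaps AGGTCA where it ends in those letters. Cry1 held an E-box from 60 to 55 bases before the start and an E-prime box, on the opposite strand, from 79 to 74 bases before it. Cry2 and Nr1d1 each held 1 E-prime box on the opposite strand, from 166 to 161 and from 28 to 23 bases before their starts. The second Arntl start had a ROR element at positions 27 to 37, with the start as 1, and Per3 had the D-box letters TTATGTAA at 2 places, 205 to 198 and 158 to 151 bases before the start. Of all 32851 promoters of this length, 7.15% held the E-box, 4.68% the E-prime box, 1.06% a D-box, 1.79% the cAMP response element, 16.3% AGGTCA and 0.384% the ROR element. The entries for Dbp, Npas2, the first Arntl start and 2 of the 3 Clock starts held none of these letters in the window, and the entries for Nr1d2 and the third Clock start held AGGTCA alone. A match describes letters and does not show that a factor was bound. The table has no entry for Per2.

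The first question was how clock genes differed between the injured and the uninjured hemisphere of mice that received no peptide. Cry1, Nr1d1 and Cry2 were higher on the injured side, by 1.48, 1.29 and 1.18 times, and Per3 was lower by 1.19 times. Arntl lay higher on the left without passing the test, and Per2 lay lower without passing it. Clock, Nr1d2 and Dbp had differences between -0.03 and 0.01 on the log2 scale. So 3 of 9 members were higher and 1 of 9 lower at an adjusted p under 0.05 (limma, Benjamini-Hochberg over 28187 probe sets), against 9.21% of all probe sets higher and 8.84% lower. The median difference of the members was 0.01, and its median size 0.19, beside -0.01 and 0.07 over all probe sets. In all 5088 probe sets passed, and the members' count is read against that background.

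**Figure D1:**
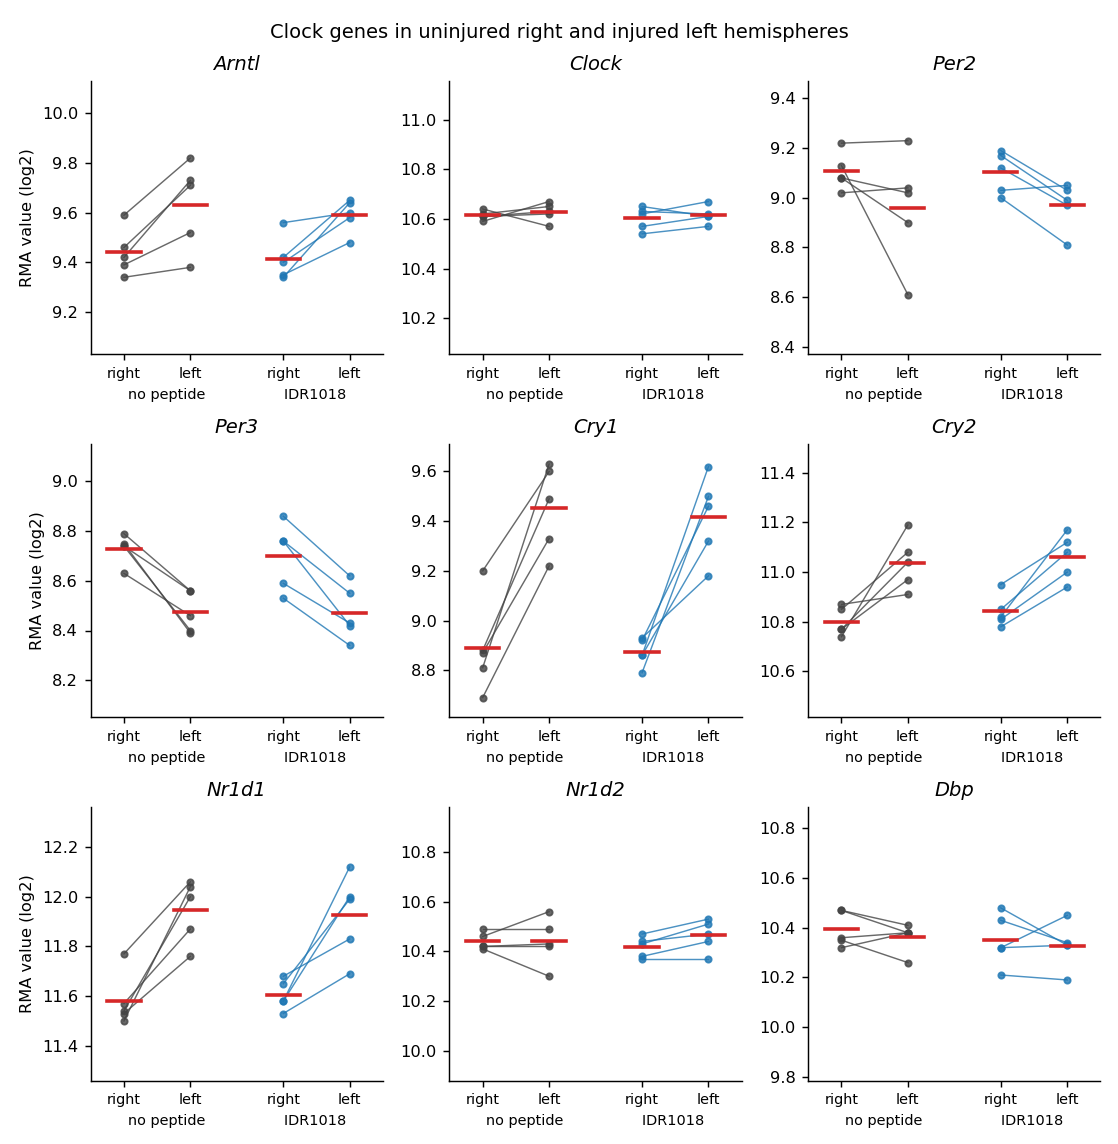
Level of each of the 9 clock genes (RMA value, log2, vertical axes all spanning the same number of units) in the uninjured right and injured left hemisphere, in mice without peptide (grey) and with IDR1018 (blue). Each line joins the 2 hemispheres of 1 animal and red bars are group means of 5 arrays. Cry1, Cry2 and Nr1d1 lines go up from right to left in all 10 animals and Per3 lines go down in all 10, while Clock, Nr1d2 and Dbp lines run nearly flat.

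Among the repressors, Cry1 (probe set 10371400), which encodes the stronger brake on ARNTL and CLOCK, had the widest gap. Its left values without peptide were 9.33, 9.22, 9.60, 9.63 and 9.49 in replicates 1 to 5. Its right values were 8.87, 8.69, 9.20, 8.81 and 8.88. Every left array lay above every right array, although the right array of replicate 3 came close to the lowest left array, and within an animal the left side was higher by 0.40 to 0.83. The mean difference was 0.57 ± 0.10 (SE, 95% interval 0.35 to 0.78, adjusted p = 0.00253). In peptide-treated mice the left values were 9.62, 9.50, 9.32, 9.46 and 9.18, and the right values 8.86, 8.79, 8.86, 8.92 and 8.93. Again the groups did not overlap, and the difference was 0.54 ± 0.07 (0.39 to 0.70, adjusted p = 0.000464). Cry1 kept its call under every alternative run.

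Cry2 (10485170), the second cryptochrome, had left values of 10.91, 10.97, 11.08, 11.19 and 11.04 without peptide and right values of 10.87, 10.77, 10.85, 10.74 and 10.77. The sides did not overlap, and within animals the gap ran from 0.04 in replicate 1 to 0.45 in replicate 4. The difference was 0.24 ± 0.05 (0.12 to 0.35, adjusted p = 0.00868). In mice given IDR1018 the left arrays read 11.08, 11.00, 11.12, 11.17 and 10.94 and the right arrays 10.85, 10.81, 10.95, 10.82 and 10.78. Here the lowest left array, replicate 5, fell just under the highest right array, replicate 3, and the difference was 0.22 ± 0.05 (0.11 to 0.33, adjusted p = 0.0126). The call in untreated mice was lost without both arrays of replicate 5 (adjusted p = 0.05), and the call in peptide-treated mice without both arrays of replicate 1 (0.0531) or replicate 4 (0.0638).

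Per3 (10518781), a period gene outside the essential core of the loop, went the other way from the cryptochromes. Without peptide its left values were 8.56, 8.40, 8.46, 8.56 and 8.39 and its right values 8.79, 8.74, 8.63, 8.74 and 8.75. All left arrays were below all right arrays, and the difference was -0.26 ± 0.05 (-0.36 to -0.15, adjusted p = 0.00326). Under peptide, left arrays read 8.43, 8.42, 8.62, 8.55 and 8.34 and the right arrays 8.59, 8.76, 8.86, 8.76 and 8.53. These groups overlapped because replicate 3 was high and replicate 5 low on both sides, but the left side was lower in all 5 animals, by 0.16 to 0.34. The difference was -0.23 ± 0.07 (-0.38 to -0.08, adjusted p = 0.0458). That second call rested on single arrays: it was lost without left replicate 1, 2, 4 or 5 or right replicate 2, 3 or 4 (adjusted p 0.0556 to 0.0989), and without both arrays of replicate 1 (0.0803), 2 (0.18), 3 (0.0591) or 4 (0.11).

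Per2 (10356601), a period gene of the core loop that light and stress hormones also induce, did not pass in either treatment. Its left values without peptide were 8.90, 8.61, 9.23, 9.04 and 9.02 against right values of 9.08, 9.13, 9.22, 9.02 and 9.08. Left replicate 2 was the lowest of all 20 arrays and left replicate 3 the highest, so the left group spanned the whole right group. The difference was -0.15 ± 0.09 (-0.35 to 0.05, adjusted p = 0.311). In the peptide groups the left arrays read 9.05, 8.99, 9.03, 8.97 and 8.81, the right arrays 9.03, 9.17, 9.19, 9.12 and 9.00, and the left side was lower in 4 animals and higher in 1. The difference there was -0.13 ± 0.05 (-0.25 to -0.02, adjusted p = 0.12). An average over all 10 animals, an analysis chosen after the data were seen, gave -0.14 with an adjusted p of 0.0551, or 0.0321 with the animal as a block.

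Nr1d1 (10390691), the REV-ERB that represses Arntl and Nfil3, was the other member higher on the injured side under both treatments. Without peptide the left arrays read 11.87, 11.76, 12.06, 12.04 and 12.00 and the right arrays 11.57, 11.53, 11.77, 11.50 and 11.54. Only the right array of replicate 3 reached into the left range, and that same animal had the highest left value. The difference was 0.36 ± 0.07 (0.21 to 0.51, adjusted p = 0.00384). With peptide the left arrays read 12.00, 11.83, 11.99, 12.12 and 11.69 and the right arrays 11.58, 11.68, 11.65, 11.58 and 11.53. These sides just missed overlapping, and the difference was 0.32 ± 0.07 (0.17 to 0.47, adjusted p = 0.0105). Without both arrays of peptide replicate 1 the adjusted p was 0.0529.

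Its relative Nr1d2 (10417734), a REV-ERB with overlapping targets, had no gap that passed the test. The left arrays without peptide read 10.56, 10.42, 10.30, 10.49 and 10.43 and the right arrays 10.46, 10.42, 10.41, 10.49 and 10.42. The left group scattered to both sides of the right one, and the difference was 0.00 ± 0.05 (-0.10 to 0.10, adjusted p = 1). With peptide the left arrays ran from 10.37 to 10.53 and the right arrays from 10.37 to 10.47, a difference of 0.05 ± 0.04 (-0.04 to 0.13, adjusted p = 0.499). Within animals the left side was higher in all 5 with peptide, by at most 0.08, and in 3 of 5 without it. The intervals leave room for a difference of up to 0.13 in Nr1d2. Whether Nr1d1 and Nr1d2 differed from each other was not tested.

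On the activating side, Arntl (10556463), the partner without which the loop stops, lay higher on the left. Its left values without peptide were 9.52, 9.38, 9.82, 9.73 and 9.71 and its right values 9.39, 9.34, 9.59, 9.42 and 9.46. The left side was higher in all 5 animals, by 0.04 to 0.31, but the groups overlapped because animals low on one side were low on the other. The difference was 0.19 ± 0.08 (0.02 to 0.36) with an adjusted p of 0.122, which became 0.0308 with the animal as a block and 0.0272 without left replicate 2. With peptide the left arrays read 9.58, 9.64, 9.48, 9.65 and 9.60 and the right arrays 9.40, 9.34, 9.35, 9.42 and 9.56. Only right replicate 5 entered the left range, and the difference of 0.18 ± 0.05 (0.07 to 0.29) passed the test (adjusted p = 0.0347). That call was lost without left replicate 1, 2, 4 or 5 or right replicate 1, 2, 3 or 4 (adjusted p 0.058 to 0.0835), without both arrays of replicate 1 (0.103), 2 (0.16) or 4 (0.121), and with all 4 groups in one fit (0.0869). The average over all 10 animals, chosen after the data were seen, was 0.18 with an adjusted p of 0.00476.

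Clock (10530733), the steady partner of ARNTL, was the most even member. Its 20 values ran from 10.54 to 10.67, with left means of 10.63 and 10.61 and right means of 10.61 and 10.60 without and with peptide. The left-right difference was 0.01 ± 0.03 (-0.06 to 0.09, adjusted p = 0.801) without peptide and 0.01 ± 0.04 (adjusted p = 0.839) with it. Either interval excludes a change of 0.1 in either direction.

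Dbp (10553092), a transcription factor driven directly by ARNTL and CLOCK and a usual readout of their output, did not separate the hemispheres. Its left arrays without peptide read 10.41, 10.38, 10.38, 10.38 and 10.26 and its right arrays 10.47, 10.36, 10.47, 10.32 and 10.35. The left side was higher in 2 animals and lower in 3, and the difference was -0.03 ± 0.04 (-0.13 to 0.06, adjusted p = 0.687). Under IDR1018 the left arrays read 10.33, 10.34, 10.33, 10.45 and 10.19 and the right arrays 10.32, 10.43, 10.48, 10.32 and 10.21. Replicate 5 was lowest on both sides, and the difference was -0.02 ± 0.06 (-0.15 to 0.10, adjusted p = 0.828). Cry1 and Nr1d1 were higher on the injured side. Dbp, another target of the same activators, had intervals of at most 0.15 to either side of no difference. Whether these genes differed from one another was not tested.

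The second comparison, left against right in the mice given IDR1018, called Cry1, Nr1d1, Cry2 and Arntl higher and Per3 lower. That made 4 of 9 members higher and 1 of 9 lower, against 7.77% and 7.07% of all probe sets, with a median difference of 0.05 (size 0.18) beside -0.01 (size 0.07) over all probe sets. It shares no array with the comparison in untreated mice. The mean level of the control probe sets was 6.98 to 7.09 on left and 7.04 to 7.17 on right arrays with peptide, and 7.01 to 7.10 and 7.01 to 7.20 without it. Adjusting for that level left 3 of the 5 calls with peptide, with Arntl at 0.0948 and Per3 at 0.124, and kept all 4 calls without it. Leaving out single arrays or animals left 1 to 5 calls, the fewest without both arrays of replicate 1.

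**Figure D2:**
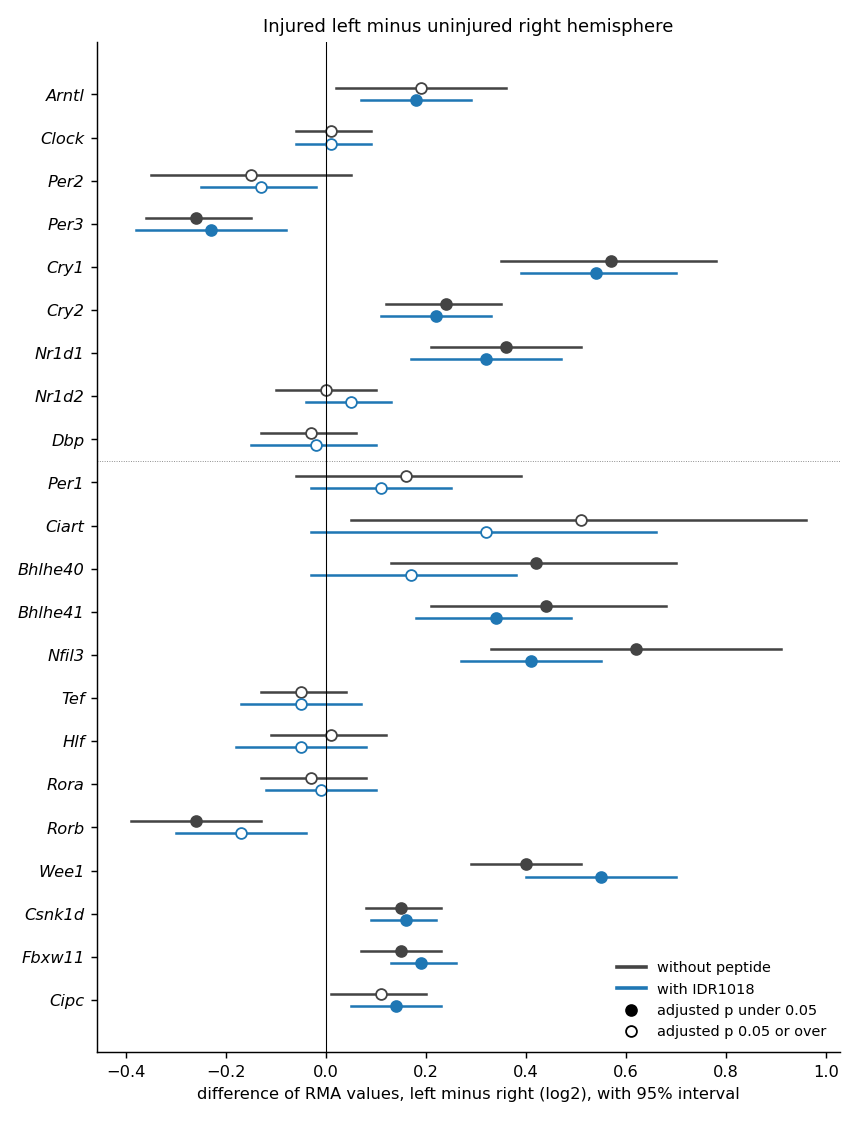
Injured left minus uninjured right hemisphere (log2) for the 9 clock genes above the dotted line and for 13 other clock genes under it, without peptide (grey) and with IDR1018 (blue). Points are limma estimates, bars 95% intervals, and filled points have an adjusted p under 0.05. Cry1, at 0.57 and 0.54, lies farthest to the right among the 9, Per3 lies left of zero, and Clock, Nr1d2 and Dbp straddle it.

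The wider clock was read from 20 further genes measured on the array. Without peptide 6 of 20 were higher on the injured side and 1 of 20 lower, against 9.21% and 8.84% of all probe sets. With peptide 6 of 20 were higher and 0 of 20 lower, against 7.77% and 7.07%. Nfil3, the repressor at D-boxes that NR1D1 represses, was higher by 0.62 ± 0.13 (adjusted p = 0.00829) without and 0.41 ± 0.06 (0.00144) with peptide. Wee1, a cell cycle kinase driven through E-boxes, was higher by 0.40 ± 0.05 (0.000507) and 0.55 ± 0.07 (0.000318). Bhlhe41 (DEC2), which competes for E-boxes, was higher by 0.44 ± 0.11 (0.0144) and 0.34 ± 0.07 (0.00839), and its relative Bhlhe40 (DEC1) passed without peptide only (0.42 ± 0.13, 0.0441; with peptide 0.17 ± 0.09, 0.251). The difference between the Bhlhe40 values was -0.24 ± 0.17 and did not pass its test (adjusted p = 1). The regulators of PER stability Csnk1d (0.15 and 0.16) and Fbxw11 (0.15 and 0.19) passed under both treatments. The single call of Bhlhe40 was lost without left replicate 1, 3 or 5, without right replicate 1, 2, 4 or 5, without both arrays of replicate 1, 3, 4 or 5 and with the control level as a covariate (adjusted p 0.0628 to 0.183). Without peptide, leaving out both arrays of replicate 4 or 5 also lost Bhlhe41 (0.0814 and 0.0754) and Fbxw11 (0.0862 and 0.0614), leaving out those of replicate 4 lost Csnk1d (0.0584), and leaving out those of replicate 2 lost Fbxw11 (0.0682).

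Rorb, an activator at ROR elements, was lower by 0.26 ± 0.06 without peptide on the log2 scale (-0.26, adjusted p = 0.0106) and measured -0.17 ± 0.06 (0.0862) with it. Cipc, which binds CLOCK, passed with peptide at 0.14 (0.0432) but lost that call in 15 of 22 alternatives. Among these were the animal as a block (0.101) and fits without left replicate 1, 2, 4 or 5, right replicate 1, 2, 4 or 5 or both arrays of replicate 1, 2, 4 or 5 (0.0623 to 0.155). Per1, the light-induced period gene, measured 0.16 ± 0.10 (0.323) and 0.11 ± 0.06 (0.292). Ciart (CHRONO), a repressor of ARNTL and CLOCK, measured 0.51 ± 0.21 without peptide (0.119, or 0.0147 with the animal as a block) and 0.32 ± 0.16 (0.209) with it, and the gene's other probe set gave 0.43 and 0.26. The D-box activators Tef (-0.05 and -0.05) and Hlf (0.01 and -0.05), which share their site with DBP, and Rora (-0.03 and -0.01) did not pass. Among factors that act on the same site, NFIL3 message differed between hemispheres while intervals for Dbp, Tef and Hlf all included no difference. No test compared these genes with one another.

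Some markers of other cells also differed between hemispheres. Their counts are read against all probe sets: 9.21% higher and 8.84% lower without peptide, and 7.77% and 7.07% with it. Of 7 markers of the suprachiasmatic nucleus only Rgs16 passed, higher on the left by 0.88 ± 0.05 and 0.73 ± 0.10, while 6 of the 7 had negative estimates without peptide (median -0.09, with Avp at -0.33) and 5 of 7 with it (median -0.10). The summed level, in which Rgs16 was the one marker that passed, ran against most of the list, at 11.17 to 11.30 on the left and 10.95 to 11.03 on the right without peptide, and 11.07 to 11.26 and 10.96 to 11.12 with it. Nms, a neuropeptide that defines that nucleus, did not reach 6.84, the control median, on 14 of 20 arrays. Of 6 neuronal markers 1 (Tubb3) was lower under each treatment, and their sum was 15.57 to 15.60 on the left and 15.66 to 15.71 on the right without peptide, and 15.61 to 15.64 and 15.66 to 15.70 with it. Of 6 microglial markers 3 were lower and 1 (Itgam) higher without peptide, 2 were lower and 0 higher with it, and their sum was 11.77 to 11.83 against 11.87 to 12.06 and 11.75 to 11.89 against 11.79 to 11.98. Astrocyte markers had 1 and then 2 of 6 higher (Gfap under both), endothelial markers 1 of 6 (Pecam1), and oligodendrocyte (5 measured) and choroid plexus (6 measured) markers 0 under both. The part of these marker differences in the differences of the clock genes was not tested.

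The question for the peptide was whether IDR1018 changed clock genes within a hemisphere. None of the 9 members passed in the injured left hemisphere, where 0% of all probe sets passed, and none passed in the uninjured right hemisphere, where 0.00355% (1 probe set) passed. No member reached an unadjusted p under 0.05 in either hemisphere, beside 1226 probe sets (4.35%) on the left and 1218 (4.32%) on the right by the same limma fits. On the left, Cry1 measured -0.04 ± 0.09 (-0.24 to 0.16), Nr1d1 -0.02 ± 0.08 (-0.20 to 0.16) and Per2 0.01 ± 0.09 (-0.20 to 0.22). On the right, Cry1 measured -0.02 ± 0.08 (-0.18 to 0.15), Nr1d1 0.02 ± 0.05 (-0.09 to 0.14) and Per2 0.00 ± 0.05 (-0.11 to 0.10). All 9 estimates lay between -0.04 and 0.04, and all 18 intervals within -0.24 to 0.22; the intervals differ between genes, from -0.09 to 0.06 for Clock to -0.20 to 0.22 for Per2 on the left. The peptide and untreated groups overlapped for all 9 members on both sides. Overlap was not counted over all probe sets, so no reading is drawn from it.

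**Figure D3:**
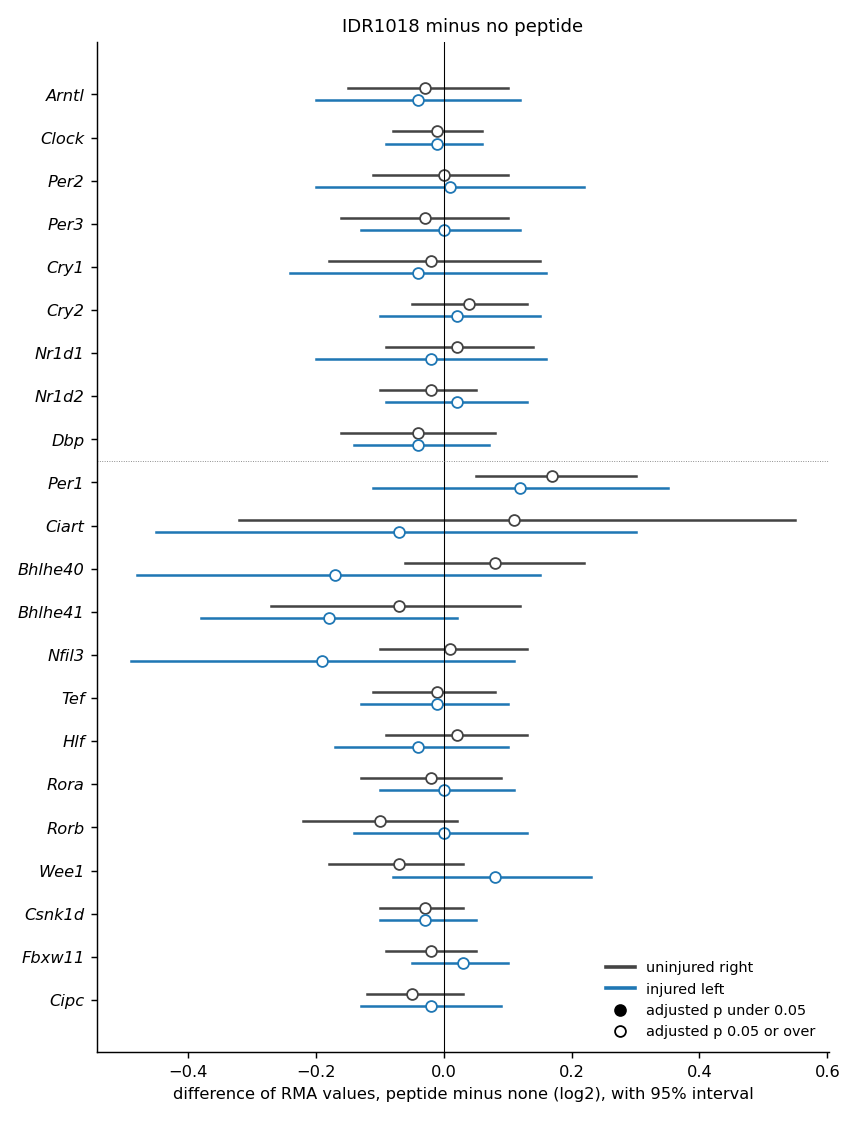
IDR1018 minus no peptide (log2) for the same 22 genes, in the uninjured right (grey) and injured left hemisphere (blue), with 95% intervals. All points are open because none has an adjusted p under 0.05, and the 9 members above the dotted line lie between -0.04 and 0.04.

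The left-right difference itself also did not differ detectably between treatments. The difference of differences (peptide minus none) was -0.02 ± 0.13 (-0.29 to 0.24) for Cry1, -0.04 ± 0.10 (-0.26 to 0.17) for Nr1d1, -0.02 ± 0.07 (-0.17 to 0.13) for Cry2, 0.03 ± 0.09 (-0.15 to 0.21) for Per3 and -0.01 ± 0.10 (-0.22 to 0.19) for Arntl. None of the 9 passed, nor did any probe set (0%; 781, or 2.77%, had an unadjusted p under 0.05). That Arntl passed with peptide and not without was thus not shown to be a difference between treatments. Of the 20 other clock genes 0 passed in either peptide comparison or in this one, and the largest estimate on the right was that of Per1, 0.17 ± 0.06 (0.05 to 0.30, adjusted p = 1). Per1 is also induced by glucocorticoids. The 6 glucocorticoid-induced genes listed had positive estimates on that side, with a median of 0.27. Unadjusted p-values were under 0.05 for all 6, but 0 passed (limma, smallest adjusted p = 0.645). On the left the estimates of all 6 were also positive, with a median of 0.14. There 2 of 6 had an unadjusted p under 0.05 and 0 passed. Their part in the value of Per1 was not tested. These genes also differed between hemispheres. Without peptide 2 of 6 were higher and 1 of 6 lower on the left, against 9.21% and 8.84% of all probe sets. With peptide 3 of 6 were higher and 3 of 6 lower, against 7.77% and 7.07%. Their part in the left-right differences of clock genes was not tested.

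Clock gene levels vary with the hour of the day, which is not given in the sources used here, so the spread between animals was set against the spread within them. The share of variance lying between animals, after group means were removed, was 0.70 for Per3, 0.61 for Arntl, 0.59 for Nr1d2, 0.46 for Dbp, 0.29 for Cry1, 0.23 for Nr1d1, 0.21 for Per2, 0.15 for Clock and 0.00 for Cry2, beside a median of 0.068 over all probe sets. In a moderated F test of the animals (limma), 0 of 9 members passed, against 0.114% of all probe sets. Per3 (adjusted p = 0.429) and Arntl (adjusted p = 0.468) were the 2 members with an unadjusted p under 0.05, as had 8.2% of all probe sets. Among the 20 other clock genes the share ran from -0.58 for Fbxw11 (an estimate below zero means animals differed less than the arrays within them) to 0.84 for Tef, with Rora at 0.76, and both of the highest missed the test (adjusted p = 0.445 for Tef and 0.49 for Rora). With 2 arrays an animal, a consistent difference between animals was thus not established for any member.

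**Figure D4:**
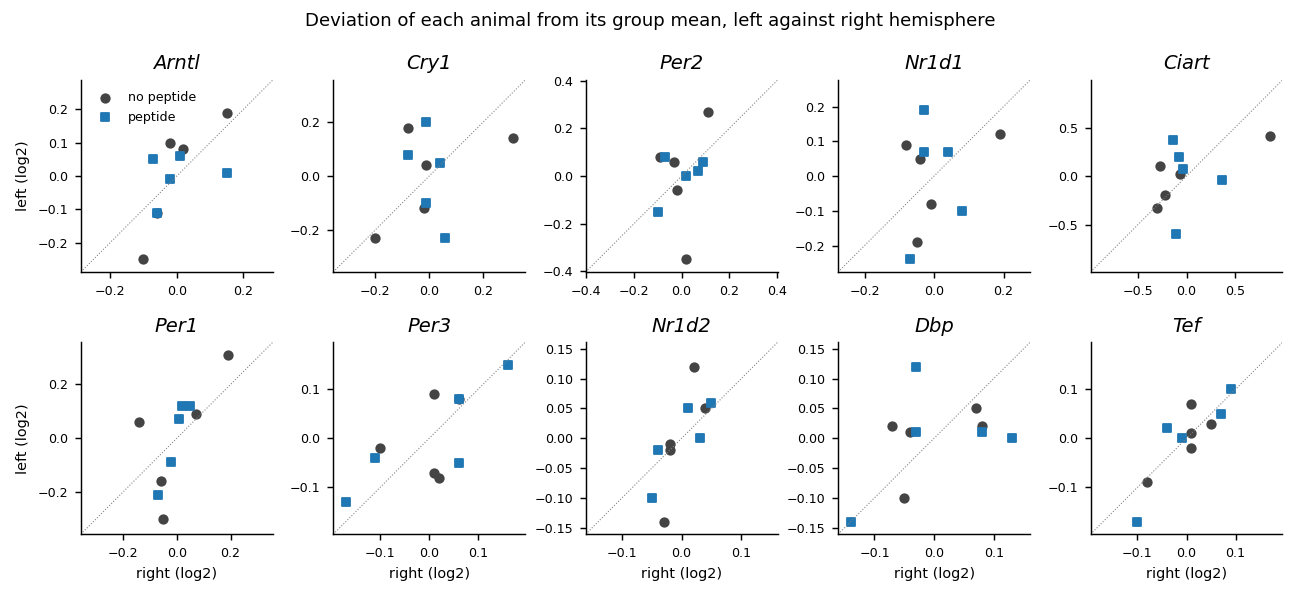
Deviation of each animal from its group mean in the right (horizontal) and left hemisphere (vertical, both log2) for 7 members and for Ciart, Per1 and Tef, with circles for mice without peptide and squares for IDR1018, and a dotted line of equal deviation. Per3 and Tef points follow the line, with shares of variance between animals of 0.70 and 0.84, while Nr1d1 and Per2 points (0.23 and 0.21) scatter around it.

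Single animals stood at the ends of several genes. Replicate 3 without peptide was above its group means, averaged over both sides, by 0.22 for Cry1, 0.19 for Per2, 0.17 for Arntl and 0.15 for Nr1d1, and measured -0.06 for Per3 and -0.08 for Nr1d2. Replicate 2 without peptide was below its group means for the first set, at -0.22 for Cry1, -0.16 for Per2, -0.17 for Arntl and -0.12 for Nr1d1. Its Per2 value came from the left array (-0.35), with the right array at 0.02. Replicate 5 with peptide was low for Per3 (-0.15), Dbp (-0.14), Nr1d1 (-0.15), Per2 (-0.13) and Cry1 (-0.09), but at 0.08 for Arntl. For Cry1 only its left array was low (-0.23), with the right array at 0.06. Replicate 3 with peptide was the highest animal for Per3, at 0.15.

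Members thus varied together in part. Over the 20 arrays with group means removed, Pearson's r was 0.78 for Cry2 with Nr1d1, 0.77 for Per2 with Nr1d1, 0.75 for Arntl with Cry1, 0.71 for Cry1 with Nr1d1, 0.66 for Per3 with Nr1d2, 0.65 for Per2 with Cry1, 0.64 for Clock with Cry2 and 0.62 for Per3 with Dbp. Arntl ran against Per3 (-0.34), Nr1d2 (-0.39) and Dbp (-0.18). These are the 8 highest and the 3 lowest of all pairs of members, given as a description, since arrays share animals and processing. Over the 10 animal means Per2 with Nr1d1 gave r = 0.92 (Spearman's rho 0.76, and r = 0.85 without the 2 animals farthest from the median of Per2), and Per3 with Nr1d2 gave 0.84 (0.89, and 0.93 without 2 animals). Cry2 with Nr1d1 gave 0.83 (0.90, and 0.80). Arntl with Cry1 gave 0.79 (0.49) but 0.23 without the 2 farthest animals, so that relation rested on them. Per2 with Cry1 (0.84, then 0.39) and Per3 with Dbp (0.71, then 0.35) also fell without 2 animals. Cry1 with Nr1d1 gave 0.83, then 0.61, and Clock with Cry2 gave 0.77, then 0.63. Arntl with Per3 gave -0.41 (-0.45, and -0.66), and Arntl with Dbp -0.25 (-0.41, and -0.80).

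Other clock genes also varied with members. How high r runs between pairs of genes in general was not computed, and Plk2, a gene outside the lists, reached 0.88 with Arntl. No shared regulation is read from these values. Per1 followed Per2 (r = 0.89 over 20 arrays) and Nr1d1 (0.85), Ciart followed Nr1d1 (0.86), Bhlhe41 followed Nr1d1 (0.84) and Per2 (0.81), and Bhlhe40 followed Per2 (0.76). Of the D-box activators, Tef had r = 0.64 with Dbp and 0.66 with Per3, but also 0.64 with Nr1d1, 0.61 with Clock and 0.59 with Cry2. Hlf had 0.66 with Dbp, 0.58 with Nr1d1, 0.57 with Clock and 0.56 with Per3. Nfil3, their antagonist, had r = 0.68 with Per2, 0.64 with Arntl, 0.36 with Tef, 0.12 with Hlf and -0.20 with Dbp.

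**Figure D5:**
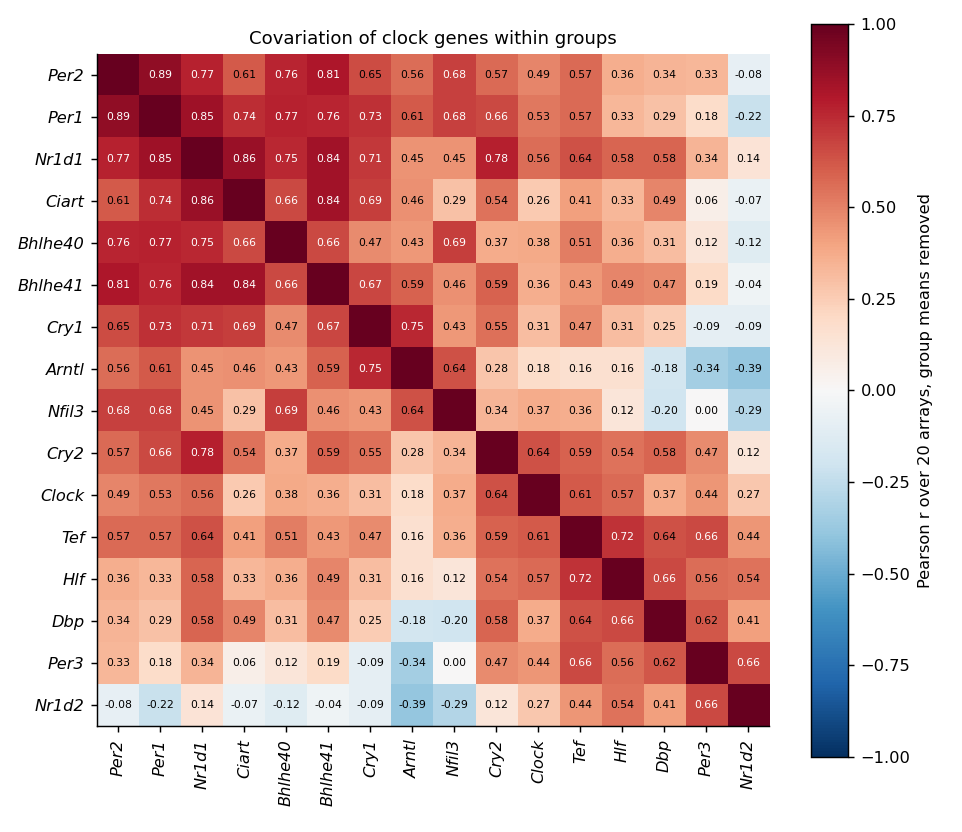
Pearson's r between 16 clock genes over the 20 arrays after removal of the 4 group means, on a colour scale from -1 to 1. Per2, Per1, Nr1d1, Ciart, Bhlhe40 and Bhlhe41 form a block at the upper left (r from 0.61 to 0.89), and Arntl is below zero with Dbp (-0.18), Per3 (-0.34) and Nr1d2 (-0.39).

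Across 15420 other genes above the control level, those whose deviations were most like those of Arntl over the 20 arrays were Plk2 (r = 0.88), Cyp51 (0.88), Idi1 (0.87), Efna1 (0.87) and Cdc42ep3 (0.87), which stayed at 0.76 to 0.85 without the 2 arrays farthest out. The most opposite were Ap5s1 (-0.90), Prkcz (-0.87), Elk1 (-0.86), Creld1 (-0.80) and Ttc38 (-0.79). For Dbp the nearest were Rasd2 (0.81), Iqsec1 (0.81), Elac2 (0.77), Secisbp2l (0.77) and Ifitm10 (0.76), which stayed at 0.62 to 0.69 without 2 arrays, and the most opposite were Smpd5 (-0.80), Foxc1 (-0.76), Ephb4 (-0.75), Tmem204 (-0.75) and Olfr543 (-0.74). None of the 5 nearest genes of Arntl or Dbp was a clock gene of the lists used here. These ranks choose extremes from many genes over 20 arrays and carry no test.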

How the data were processed

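Total RNA of 20 hemispheres was hybridised to Affymetrix mouse gene arrays. The deposited values are log2 levels made with RMA (affy 1.38.1), per the submitters' processing notes; background and chip definition settings are not given in the sources used here. Depth has no meaning for arrays, and the number of arrays limits precision. Of 34760 probe sets, 6573 numbered below the first annotated one were taken as controls and left out. Of the 28187 tested, 21640 had 1 symbol in the platform annotation, 1321 several and 5226 none.

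The arrays of each comparison entered a limma fit of their own (version 3.58.1, R version 4.3.3), with Benjamini-Hochberg adjustment over all 28187 and a threshold of 0.05. The scripts were tested on simulated data. Animals were tested with a moderated F test. All members and 9 other clock genes were named whatever their values, and further clock genes only where they passed. Members, lists and markers were chosen with earlier results of these data known. Specimen numbers pair the left and right arrays of an animal; deviations from group means correlated at 0.036 to 0.254, over 0.1 in 7 of 10 animals. Replicates are separate animals. Alternatives were other samples in the fit, the animal as a block, array centring, a filter on dim probe sets, the control level as a covariate, another probe set and each array or animal left out. Summed marker levels are log2 of summed linear values.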

Additional observations from a re-analysis of the deposited data

Results flagged for a closer look

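In 72 groups of 5 arrays (18 clock genes), 4 held an array whose gap to the nearest other was above Dixon's 95% limit, and chance gives about 1 in 20 such groups. Nr1d1 in the right hemisphere of replicate 3 without peptide measured 11.77, above the other arrays of its group at 11.50 to 11.57. Ciart in that same array measured 10.29, above 9.13 to 9.36. Ciart in the right hemisphere of replicate 2 with peptide measured 9.92, above 9.40 to 9.50. Dbp in the left hemisphere of replicate 5 without peptide measured 10.26, below 10.38 to 10.41. No cause was tested.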

How the results depend on the processing

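For the members, 1063 of 1098 values under alternatives kept their direction and their side of the threshold, 29 no longer passed, 6 newly passed and 0 reversed. The count of members that differed between hemispheres without peptide was 4 and ranged from 3 (without both arrays of replicate 5) to 5 when arrays or animals were left out. With peptide it was 5, and 3 with the control probe level as a covariate, with a range of 1 to 5 when arrays or animals were left out. The counts of members were 0 under every alternative for the peptide within a hemisphere, for the difference of differences and for animals. With the animal as a replicate block the counts were 5 without and 5 with peptide, and the paired fit changed no other call of a member than that of Arntl without peptide. Numbers shared by treated and untreated animals belong to different specimens (deviations correlated at -0.042 to 0.257 on the left and -0.016 to 0.13 on the right); as a block they left 0 members called. Over all probe sets the 5088 calls without peptide became 3194 with the control level as a covariate and 2698 to 4909 with arrays or animals left out; the 4184 with peptide became 2323 to 3729. Averaging over all 10 animals, chosen after the data were seen, gave 9354 calls (9390 with the block) and 5 members (6 with the block). The 32 probe sets that differed between animals became 52 among bright probe sets, and 11 and 5 within treatments. In the right hemisphere the 1 probe set that passed for the peptide was lost in the fit of all groups, with the block and with the covariate. Bhlhe40 without peptide lost its call in 12 of 22 alternatives. Another probe set could be tried only for Ciart.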
